A study of Mus musculus with 16 samples.

Results

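The 10 genes described here encode chemokine receptors: Ccr2, Ccr4, Ccr6, Ccr8, Ccr9, Cxcr2, Cxcr3, Cxcr4, Cxcr5 and Cxcr6. They were chosen by symbol from the 19531 genes that had a probe set of exactly 1 symbol on the array, and all 10 were among the 12798 genes tested. Each of the 10 had 1 such probe set. RNA came from CD3+ CD4+ spleen cells of male mice 6 weeks old, sorted on a MoFlo instrument into GFP+ regulatory T cells (Treg) and GFP- conventional T cells (Tconv). All mice carried a GFP reporter at Foxp3, the transcription factor gene that defines Treg, so no group had an unmodified Foxp3 locus. Foxp3-GFP mice (fusion) make Foxp3 as one protein with GFP. Foxp3-IRES-GFP mice (ires) make both proteins apart, from a shared mRNA. Each allele was on the C57BL/6 (B6) and the autoimmune-prone NOD background, which gives B6 fusion, NOD fusion, B6 ires and NOD ires Treg, and Tconv of the same 4 lines, with 2 arrays in each of the 8 groups. The sources used here do not say whether the 2 arrays of a group came from separate mice or pools, so p-values measure the spread between arrays, which may be technical.

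Chemokine receptors are G protein-coupled receptors that read gradients of secreted chemokines and steer cells to tissues. In naive T cells Ccr7 guides entry into lymph nodes, and activated or effector cells gain receptors for skin, gut, follicles or inflamed sites. Ccr4 binds Ccl17 and Ccl22, and Ccr8 binds Ccl1 and, in mouse, Ccl8. Ccr6 binds Ccl20, Ccr9 binds the gut chemokine Ccl25, Ccr2 binds Ccl2, and Cxcr3 binds the interferon-induced chemokines Cxcl9 and Cxcl10. Cxcr5 reads the B cell follicle chemokine Cxcl13, Cxcr4 reads Cxcl12, Cxcr6 reads Cxcl16, and Cxcr2 is best known as the neutrophil receptor for Cxcl1 and Cxcl2.

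The stretches of DNA just before the transcription starts of 5 of the receptors are shown to set receptors that rose in Treg (Ccr8, Ccr4, Ccr6 and Cxcr3) beside the one that fell on every array (Cxcr6). Each window holds the 250 bases before the start in RefSeq's annotation of GRCm38.p6, written 5′ to 3′ on the gene's own strand. Capitals mark matches to any of 6 motifs searched on both strands.
Ccr8 (chr9:120091883-120092132, plus strand): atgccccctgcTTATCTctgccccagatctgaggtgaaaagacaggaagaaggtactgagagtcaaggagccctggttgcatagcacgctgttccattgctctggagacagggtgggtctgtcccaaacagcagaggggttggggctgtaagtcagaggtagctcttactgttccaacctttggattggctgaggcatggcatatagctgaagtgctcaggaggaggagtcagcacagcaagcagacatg
Ccr4 (chr9:114496545-114496794, minus strand): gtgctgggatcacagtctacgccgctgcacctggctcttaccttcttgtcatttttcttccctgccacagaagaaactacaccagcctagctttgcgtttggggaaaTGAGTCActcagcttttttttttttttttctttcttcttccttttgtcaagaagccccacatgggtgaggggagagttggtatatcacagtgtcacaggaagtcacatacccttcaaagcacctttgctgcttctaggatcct
Ccr6 (chr17:8235793-8236042, plus strand): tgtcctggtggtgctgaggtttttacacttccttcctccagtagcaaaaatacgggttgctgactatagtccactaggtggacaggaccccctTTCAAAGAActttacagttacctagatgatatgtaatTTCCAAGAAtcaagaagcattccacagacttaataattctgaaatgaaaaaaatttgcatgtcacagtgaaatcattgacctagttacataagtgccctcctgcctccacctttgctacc
Cxcr3 (chrX:101734148-101734397, minus strand): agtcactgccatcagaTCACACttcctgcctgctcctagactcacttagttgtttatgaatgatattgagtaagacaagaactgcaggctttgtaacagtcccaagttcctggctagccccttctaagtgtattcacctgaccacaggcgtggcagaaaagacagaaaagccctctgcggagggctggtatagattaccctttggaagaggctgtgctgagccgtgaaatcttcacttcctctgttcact
Cxcr6 (chr9:123806227-123806476, plus strand): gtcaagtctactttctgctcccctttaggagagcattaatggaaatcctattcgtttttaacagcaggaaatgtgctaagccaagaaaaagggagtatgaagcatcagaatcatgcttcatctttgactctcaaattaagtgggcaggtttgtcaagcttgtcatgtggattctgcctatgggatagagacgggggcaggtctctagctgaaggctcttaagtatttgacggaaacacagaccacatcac

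Of the 10 genes, 9 had a window and Cxcr5 had none, and Ccr6 had 2 windows, of which the first is shown. The AP-1 motif, TGANTCA, was found in 6.75% of all 32851 RefSeq windows of this length. The forkhead motif, TGTTTAC, the family of Foxp3, was in 3.17% of them. The STAT motif, TTCNNNGAA, was in 7.02% of all windows, and the GATA motif, which reads AGATAA, was in 9.99%. For T-box factors such as T-bet the letters were TCACAC, present in 12.3% of windows, and for NFAT they were GGAAAA, present in 20.4% of windows. The Ccr4 window held 1 AP-1 match, TGAGTCA, 143 to 137 bases before the start. The Ccr6 window shown held 2 STAT matches, at 157 to 149 and 120 to 112 bases before the start, and its second window held a GATA match. Ccr8 had a GATA match on the opposite strand at 239 to 234 bases, and Cxcr3 a T-box match at 234 to 229 bases. Ccr2, not shown, had 1 GATA and 1 NFAT match. The windows of Ccr9, Cxcr2, Cxcr4 and Cxcr6 held none of the 6 motifs, and no window of the 10 genes held the forkhead motif. A match describes the letters only.

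All values are log2 intensities, which the array fixes separately for each probe set, so levels are compared between samples and never between genes. The labelled cell types were checked against their markers on every array. Foxp3 lay at 11.37 to 12.16 in Treg and at 7.01 to 8.18 in Tconv, while Cd4 lay at 11.04 to 11.34 in Treg and 11.31 to 11.72 in Tconv, and Cd3e at 11.14 to 11.84 in Treg and 11.03 to 11.65 in Tconv. Genes were tested if they exceeded log2 6.06, the 40th percentile of all values, on at least 2 arrays. That level is a filter, not a detection limit. Ccr8 passed through its Treg arrays alone (0 of 8 Tconv arrays above it) and Cxcr2 through 3 NOD Tconv arrays alone. Ccr6 was above it on 4 of 8 Tconv arrays, Cxcr6 on 5 of 8 Treg arrays and Ccr2 on 7 of 8 Tconv arrays, with all arrays of the other cell type above it. The remaining 5 genes were above it on all 16 arrays.

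In each ires line, 1 Tconv array stood apart from its partner for several receptors. NOD ires Tconv replicate 1 exceeded replicate 2 for 7 of the 10 genes, with the widest gap at Cxcr6 (9.13 against 7.91). B6 ires Tconv replicate 2 exceeded replicate 1 most at Cxcr5 (7.23 against 6.06). These 2 Tconv arrays had the highest summed intensity of the CD8, NK, NKT and gamma-delta T cell markers, both 1750, against 1410 in NOD ires Tconv replicate 2 and 1490 in B6 ires Tconv replicate 1, and the part of such cells in the receptor values was not tested. In Treg the widest gaps were at Cxcr4 in NOD fusion (10.25 and 11.33) and at Ccr2 in B6 fusion (9.63 and 8.66). Gaps were thus not confined to the ires Tconv groups. Cxcr4 read 10.68 and 11.68 in NOD fusion Tconv, and B6 ires Treg replicate 1 also exceeded replicate 2 for 7 genes. Over all tested genes the SD of the difference between the 2 arrays of a group was 0.18 to 0.25.

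**Figure D1:**
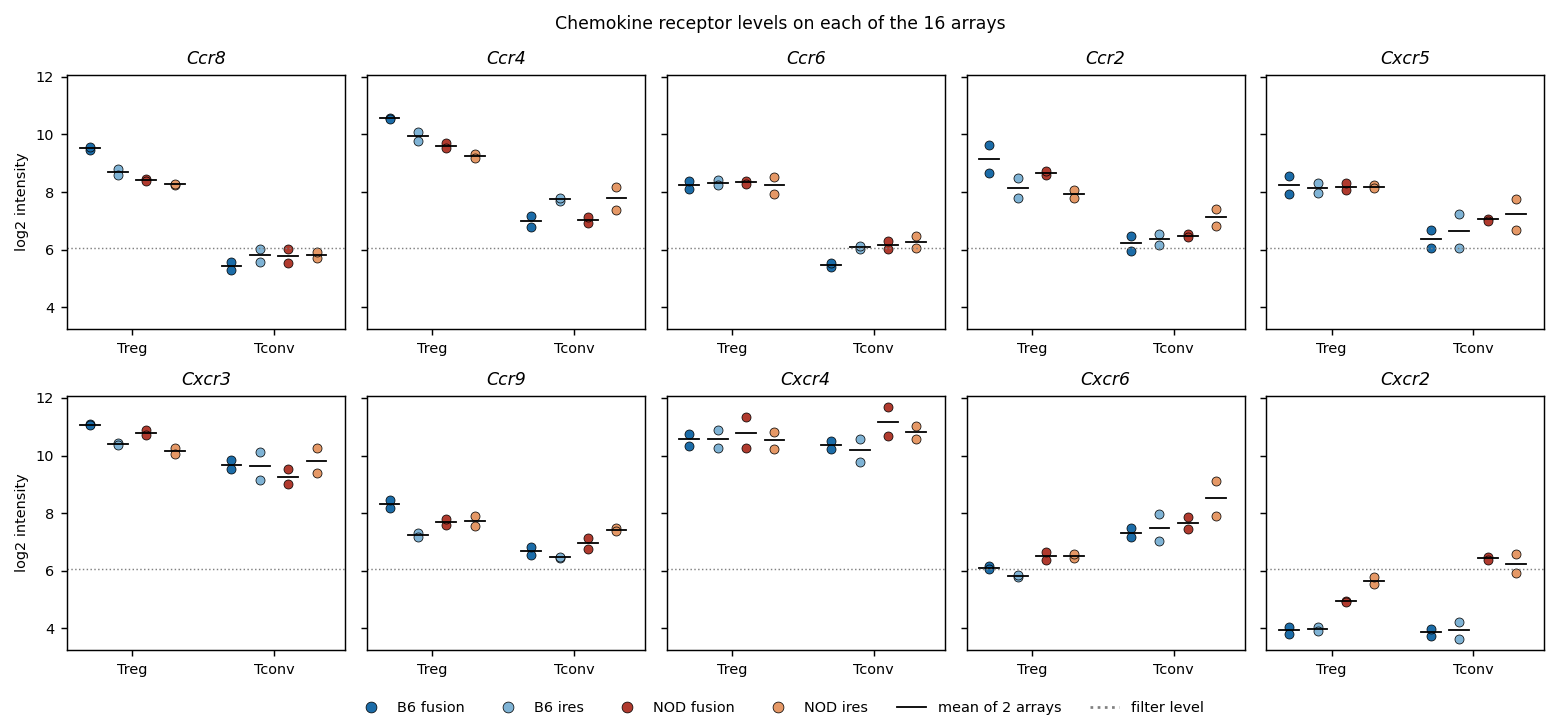
Log2 intensity (y axis) of each of the 10 receptors on all 16 arrays, with Treg left and Tconv right in each panel, points for single arrays coloured by line, bars for the mean of 2 arrays and a dotted line at the filter level of 6.06. Treg points lie wholly above Tconv points for Ccr8, Ccr4, Ccr6, Ccr2 and Cxcr5 and wholly below for Cxcr6, and Cxcr2 separates NOD from B6. Heights are not comparable between panels.

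Treg against Tconv over the 4 lines asked which receptors set the sorted populations apart. A linear model of all 16 arrays (limma, 1 mean per group) gave log2 differences with SE, and a gene was called at a Benjamini-Hochberg adjusted p under 0.05 over the 12798 genes. Of the 10 receptors, 7 rose in Treg, 2 fell and 1 did not pass the test, where 28.6% of all tested genes were called in either direction. The median difference of the 10 was 1.19, against -0.01 over all tested genes. For 5 receptors all 8 Treg arrays lay above all 8 Tconv arrays, a pattern found in 5.69% of tested genes, and for Cxcr6 all 8 lay below, as in 2.59% of tested genes. All 5 cell cycle markers also rose in Treg, with a summed intensity of 650 to 1650 in Treg and 400 to 708 in Tconv. Within lines, 5 of them were called in B6 fusion, 3 in B6 ires, 2 in NOD fusion and 1 in NOD ires mice, and their part in the receptor differences was not tested. In such bulk samples, fewer cells with a receptor and less RNA per cell cannot be told apart.

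Ccr8, a receptor of tissue and skin-homing Treg, had the largest fitted difference of the 10. Its log2 intensities were 9.46 and 9.57 in B6 fusion Treg, 8.80 and 8.60 in B6 ires Treg, 8.44 and 8.37 in NOD fusion Treg, and 8.26 and 8.28 in NOD ires Treg. In Tconv they were 5.59 and 5.29 in B6 fusion, 6.03 and 5.59 in B6 ires, 5.53 and 6.01 in NOD fusion, and 5.72 and 5.93 in NOD ires. The 4 Treg groups stood in that order with no overlap between neighbours, while in Tconv the groups overlapped, except that both B6 fusion arrays lay below both NOD ires arrays. Ccr8 was 3.01 ± 0.08 higher in Treg (SE, limma adjusted p = 3.18e-15). Because its Tconv values lay under the filter level, no fold is given. With no filter, so that its Treg level did not decide whether it was tested, the adjusted p was 1.44e-15.

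Ccr4, the receptor for Ccl17 and Ccl22, was the second. Treg arrays read 10.59 and 10.54 in B6 fusion, 10.09 and 9.79 in B6 ires, 9.69 and 9.52 in NOD fusion, and 9.33 and 9.18 in NOD ires. Tconv arrays read 6.78 and 7.18 in B6 fusion, 7.70 and 7.80 in B6 ires, 6.93 and 7.12 in NOD fusion, and 8.18 and 7.39 in NOD ires. The Treg groups followed the same order as for Ccr8, again without overlap, and in Tconv the ires arrays lay above all fusion arrays. The difference was 2.46 ± 0.10 (limma adjusted p = 4.61e-13), 5.48-fold.

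Ccr6, the Ccl20 receptor found on cells of the Th17 type and on activated Treg, held nearly the same level in every Treg group. Its Treg arrays ran from 7.95 through a median of 8.33 to 8.54, and its Tconv arrays from 5.41 through 6.05 to 6.49. The 4 Treg groups overlapped one another, and B6 fusion Tconv, at 5.41 and 5.53, lay below the other Tconv groups. Ccr6 was 2.29 ± 0.09 higher in Treg (limma adjusted p = 3.48e-13). For Ccr9, the gut-homing receptor, the cell types overlapped. Its Treg arrays ran from 7.16 through 7.69 to 8.45 and its Tconv arrays from 6.45 through 6.78 to 7.47. It rose by 0.86 ± 0.08 (limma adjusted p = 8.68e-08).

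Among receptors for inflamed sites, Ccr2 ran from 7.78 through 8.55 to 9.63 in Treg and from 5.96 through 6.51 to 7.43 in Tconv, with no overlap. It rose by 1.92 ± 0.14 (limma adjusted p = 2.24e-09). Cxcr3, carried by T-bet-expressing Treg and Th1 cells, ran from 10.06 through 10.57 to 11.10 in Treg and from 9.02 through 9.52 to 10.25 in Tconv. Its ranges overlapped only through 2 Tconv arrays, B6 ires replicate 2 at 10.13 and NOD ires replicate 1 at 10.25, and it rose by 1.01 ± 0.13 (limma adjusted p = 6.97e-06). Tbx21, the gene of T-bet, had Treg arrays at 6.76 to 7.73 and Tconv arrays at 7.13 to 7.64 and was not called.

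Cxcr6, the Cxcl16 receptor of effector, memory and NKT cells, ran the other way. Treg arrays read 6.15 and 6.05 in B6 fusion, 5.78 and 5.85 in B6 ires, 6.38 and 6.66 in NOD fusion, and 6.43 and 6.60 in NOD ires. Tconv arrays read 7.19 and 7.48 in B6 fusion, 7.02 and 7.98 in B6 ires, 7.87 and 7.45 in NOD fusion, and 9.13 and 7.91 in NOD ires. Every Treg array lay below every Tconv array, and Cxcr6 fell by 1.52 ± 0.15 in Treg (limma adjusted p = 1.72e-07). Without the high array, NOD ires Tconv replicate 1, it differed by -1.36 (adjusted p = 2.42e-08). Between the cell types most markers of CD8, NK, NKT and gamma-delta T cells moved with it: of 7 tested members 4 fell and 1 rose. Their summed intensity over 11 genes was 952 to 1280 in Treg and 1380 to 1750 in Tconv. Between strains in Treg, 2 of the 7 tested members were called higher in NOD, 2 lower and 3 not called. The sums were 952 to 1140 in NOD and 1130 to 1280 in B6. Cxcr6 lay there at 6.38 to 6.66 in NOD and 5.78 to 6.15 in B6. That difference of 0.56 ± 0.21 did not pass the test (limma adjusted p = 0.0661). Against Tconv, Klrd1, an NK receptor chain, fell in Treg by 2.35 ± 0.13. Zbtb16, which encodes the NKT regulator PLZF, fell by 0.63 ± 0.09, while the NK markers Ncr1 and Klrb1c were below the filter. The part of these cells in the Cxcr6 difference was not tested.

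Cxcr5, which brings follicular helper and follicular regulatory T cells to B cell follicles, had Treg arrays from 7.92 through 8.18 to 8.57 and Tconv arrays from 6.06 through 6.85 to 7.77. The groups did not overlap, and Cxcr5 rose by 1.37 ± 0.16 (limma adjusted p = 2.40e-06). Of 6 tested markers of follicular helper cells 4 rose and none fell, among them Pdcd1, the gene of PD-1, by 1.19 ± 0.08 and Bcl6, the master regulator of these cells, by 0.30 ± 0.07. Their summed intensity was 1670 to 2080 in Treg and 1020 to 1410 in Tconv, and its part in the Cxcr5 difference was not tested. Cxcr4, which retains cells where Cxcl12 is made, had Treg arrays from 10.23 through 10.56 to 11.33 and Tconv arrays from 9.79 through 10.59 to 11.68. Its difference of -0.03 ± 0.18 did not pass the test (limma adjusted p = 0.942, 95% interval -0.39 to 0.34), and in the order of its 8 group means each group overlapped the next. By line it was 0.18 and 0.38 in B6 fusion and ires, and -0.39 and -0.28 in NOD fusion and ires (each ± 0.35), none called. With replicate number as a term within each line, limma called the strain difference in Treg minus that in Tconv (-0.62, adjusted p = 0.00766).

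Cxcr2 fell by 0.49 ± 0.10 over the 4 lines (limma adjusted p = 0.000659), but its values split by strain, not by cell type alone. NOD fusion Treg read 4.96 and 4.92 and NOD ires Treg 5.54 and 5.77, against 6.47 and 6.39 in NOD fusion Tconv and 5.91 and 6.57 in NOD ires Tconv. B6 Treg arrays read 3.82 to 4.04 and B6 Tconv arrays 3.64 to 4.23. All NOD Treg arrays thus lay below all NOD Tconv arrays, and the B6 arrays of both cell types overlapped, far under the filter level.

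**Figure D2:**
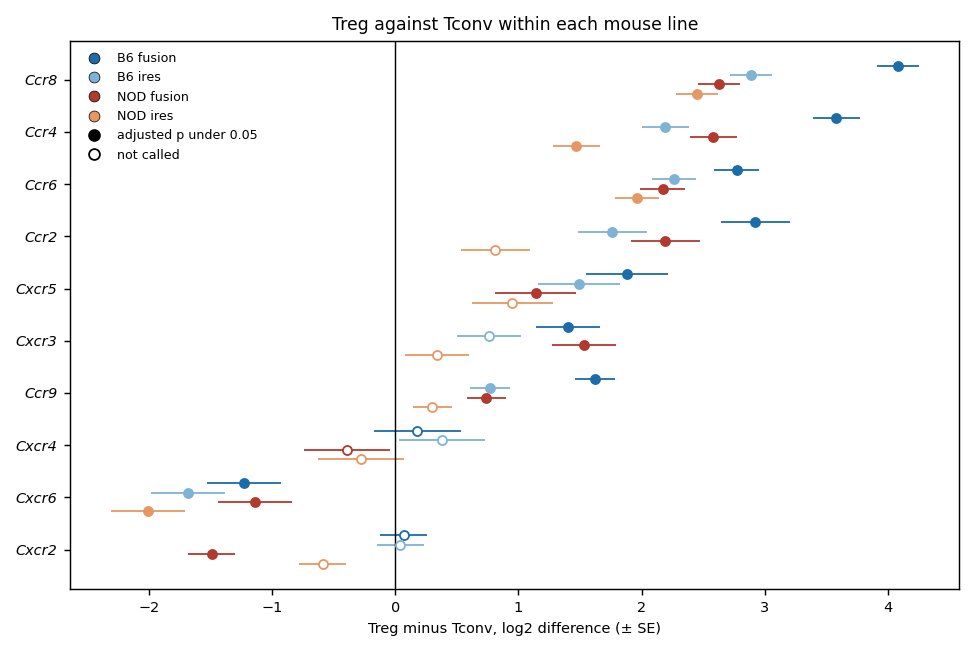
Log2 difference of Treg minus Tconv (x axis, points ± SE) of each receptor within each of the 4 mouse lines, with filled points for an adjusted p under 0.05 and open points otherwise. Ccr8, Ccr4 and Ccr6 lie right of 0 and Cxcr6 lies left of 0 in every line, and the NOD ires line has the smallest difference for each of the 7 receptors that rose.

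Within single lines, 8 of the 10 receptors were called in B6 fusion mice (14.1% of all tested genes), 7 in B6 ires (9.88%), 9 in NOD fusion (11.0%) and 4 in NOD ires (9.26%). Ccr8, Ccr4, Ccr6 and Cxcr6 were called in all 4 lines. The Cxcr6 call was lost in B6 fusion mice without Tconv replicate 2 (adjusted p = 0.0645) or Treg replicate 2 (adjusted p = 0.0827), and in NOD fusion mice without Tconv replicate 1 (adjusted p = 0.154) or Treg replicate 1 (adjusted p = 0.132). Ccr8 differed by 4.08 ± 0.17 in B6 fusion, 2.89 ± 0.17 in B6 ires, 2.63 ± 0.17 in NOD fusion and 2.45 ± 0.17 in NOD ires mice. Ccr4 differed by 3.58 ± 0.19, 2.19 ± 0.19, 2.58 ± 0.19 and 1.47 ± 0.19 in the same order of lines, and Ccr6 by 2.77 ± 0.18, 2.26 ± 0.18, 2.17 ± 0.18 and 1.96 ± 0.18. Cxcr6 differed by -1.23 ± 0.30, -1.68 ± 0.30, -1.14 ± 0.30 and -2.01 ± 0.30.

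Ccr2 was called in 3 lines, at 2.92 ± 0.28 in B6 fusion, 1.76 ± 0.28 in B6 ires and 2.19 ± 0.28 in NOD fusion mice, and differed by 0.81 ± 0.28 in NOD ires mice (limma adjusted p = 0.0846). Cxcr5 and Ccr9 were called in the same 3 lines, and Cxcr3 in the 2 fusion lines. The Cxcr5 call in NOD fusion mice was lost without any 1 of that line's 4 arrays (adjusted p from 0.0779 to 0.146), and in B6 ires mice without Tconv replicate 1 (adjusted p = 0.124) or Treg replicate 2 (adjusted p = 0.0627). The Ccr9 call in NOD fusion mice was lost without Tconv replicate 1 (adjusted p = 0.0921) or Treg replicate 2 (adjusted p = 0.0515). In NOD ires mice Cxcr5 differed by 0.95 ± 0.33 (adjusted p = 0.0874), Ccr9 by 0.30 ± 0.16 (adjusted p = 0.339) and Cxcr3 by 0.34 ± 0.26 (adjusted p = 0.582), all by limma. Without NOD ires Tconv replicate 1, which leaves 1 array in its group, Ccr2 differed by 1.11, Cxcr5 by 1.49 and Cxcr2 by -0.92 in that line. That array was higher than replicate 2 for Ccr2 and Cxcr5 but lower for Cxcr2 (5.91 against 6.57). Over all alternatives the NOD ires difference ran from 0.50 to 1.11 for Ccr2, 0.42 to 1.49 for Cxcr5 and -0.92 to -0.26 for Cxcr2. Cxcr2 was called in NOD fusion mice, at -1.49 ± 0.19, but not in NOD ires mice, at -0.59 ± 0.19 (limma adjusted p = 0.0722). It differed by 0.07 ± 0.19 and 0.04 ± 0.19 in B6 fusion and B6 ires mice.

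Fusion against ires within Treg compared the 2 reporter alleles. Averaged over both backgrounds 2 of the 10 receptors were called, both higher in fusion Treg, where 0.609% of tested genes were called. The median difference of the 10 was 0.31, against 0 over all tested genes. Ccr2 read 9.63 and 8.66 in B6 fusion Treg and 8.61 and 8.75 in NOD fusion Treg, against 8.49 and 7.78 in B6 ires Treg and 8.06 and 7.80 in NOD ires Treg. No fusion array overlapped an ires array, and Ccr2 was 0.88 ± 0.20 higher in fusion Treg (limma adjusted p = 0.0479). Ccr9 read 8.17 and 8.45 in B6 fusion Treg and 7.58 and 7.79 in NOD fusion Treg, against 7.31 and 7.16 in B6 ires Treg and 7.54 and 7.92 in NOD ires Treg. The B6 groups were separate and the NOD groups overlapped, and Ccr9 was 0.51 ± 0.11 higher in fusion Treg (limma adjusted p = 0.0473).

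Neither call was firm, since the adjusted p ran from 0.0133 to 0.276 over 26 alternatives for Ccr2 and from 0.0188 to 0.27 for Ccr9, and both were lost, for example, with no filter on low genes. Cxcr3 fusion Treg arrays, at 10.71 to 11.10, also lay above all ires Treg arrays, at 10.06 to 10.43, but its difference of 0.66 ± 0.19 did not pass the test (limma adjusted p = 0.18). Neither did Ccr4 at 0.49 ± 0.14 (adjusted p = 0.171) nor Ccr8 at 0.48 ± 0.12 (adjusted p = 0.0885). When only the Treg arrays were fitted, 5 receptors were called, the 2 above and Ccr4, Ccr8 and Cxcr3. That fit called 115 of the 12798 tested genes, against 78 in the fit of all arrays. Ccr6 (0 ± 0.12, 95% interval -0.26 to 0.27) and Cxcr5 (0.06 ± 0.23, 95% interval -0.43 to 0.55) did not pass. Foxp3 itself lay at 11.37 to 11.59 in fusion Treg and 11.77 to 12.16 in ires Treg. The summed intensity of 5 cell cycle markers was 814 to 1650 in fusion Treg and 650 to 1060 in ires Treg, and its part in the receptor differences was not tested.

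In B6 mice alone 2 receptors were called, against 0.344% of tested genes. Ccr9 was 1.07 ± 0.16 higher in fusion Treg (limma adjusted p = 0.00303) and Ccr8 0.82 ± 0.17 higher (limma adjusted p = 0.0383). The Ccr9 call was lost without B6 fusion Treg replicate 2 (0.93, adjusted p = 0.0956) or B6 ires Treg replicate 2 (adjusted p = 0.118), and the Ccr8 call without any 1 of the 4 B6 Treg arrays or either NOD ires Treg array (adjusted p from 0.0504 to 0.443). In NOD mice limma called 0 of the 10, against 0.102% of tested genes, and 3 had an unadjusted p under 0.05. Ccr9 differed by -0.04 ± 0.16 and Ccr8 by 0.14 ± 0.17 there. The test of the difference between backgrounds, NOD minus B6, also called 0 receptors (0.0391% of tested genes). Ccr9 came nearest, at -1.11 ± 0.23 (limma adjusted p = 0.131), followed by Ccr8 at -0.68 ± 0.24 (adjusted p = 0.763), so the allele difference was not shown to depend on background.

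In Tconv fusion against ires called 0 receptors by limma (0.0234% of tested genes), with 3 at an unadjusted p under 0.05. Ccr4 was nearest: its fusion Tconv arrays, at 6.78 to 7.18, lay below all ires Tconv arrays, at 7.39 to 8.18, a difference of -0.76 ± 0.14 (limma adjusted p = 0.0885). The allele difference in Treg minus that in Tconv was called for 1 receptor, Ccr4, at 1.25 ± 0.19 (limma adjusted p = 0.0158), where 0.0469% of tested genes were called. The allele difference of Ccr4 passed the test in neither cell type on its own. The call of 1.25 was lost without either B6 fusion Treg array, without B6 ires Tconv replicate 2 or without B6 ires Treg replicate 2, with adjusted p from 0.0526 to 0.0763. Ccr2 had a difference of 1.27 ± 0.28 that did not pass (adjusted p = 0.118).

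**Figure D3:**
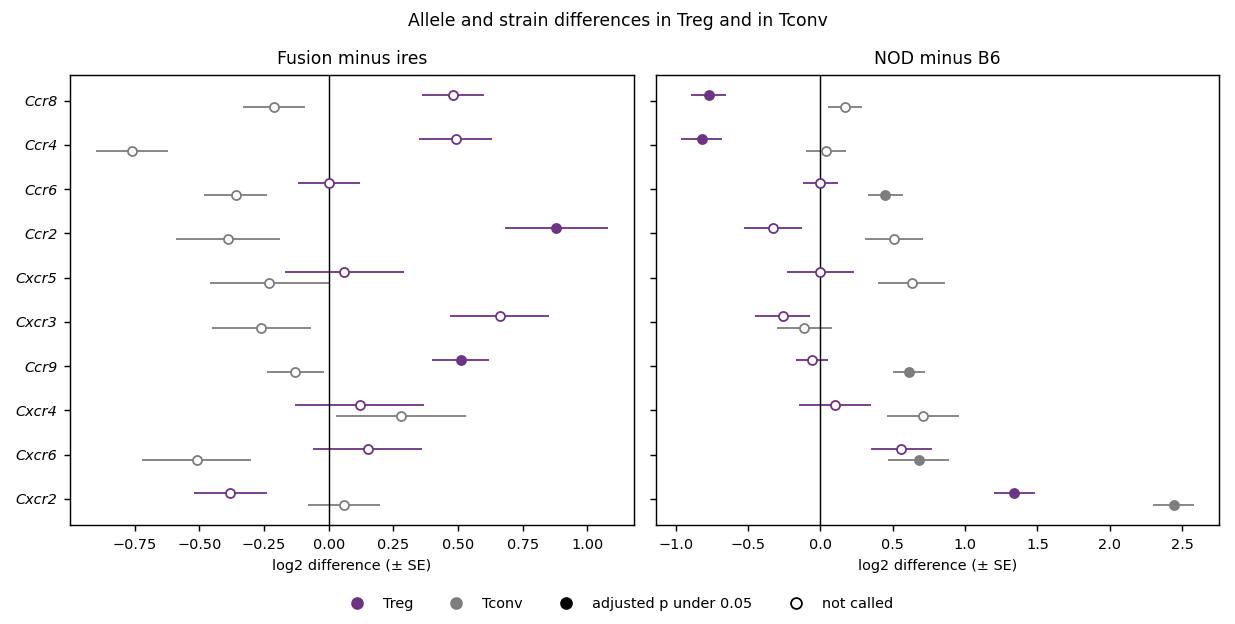
Log2 differences (x axes, points ± SE) of fusion minus ires, left, and of NOD minus B6, right, for the 10 receptors in Treg (purple) and in Tconv (grey), with filled points for an adjusted p under 0.05. For Ccr4 the allele differences, neither of them called, lie on opposite sides of 0 in Treg and Tconv, and Cxcr2 has the largest strain difference of the 10 in both cell types. The 2 panels have different scales.

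NOD against B6 asked how the strain bears on the receptors. In Treg 3 of the 10 were called, 1 higher and 2 lower in NOD, where 21.0% of tested genes were called. Cxcr2 read 4.92 to 5.77 in NOD Treg and 3.82 to 4.04 in B6 Treg, a difference of 1.34 ± 0.14 (limma adjusted p = 2.02e-06). Ccr8 lay at 8.26 to 8.44 in NOD Treg and 8.60 to 9.57 in B6 Treg, a difference of -0.77 ± 0.12 (limma adjusted p = 0.000168). Ccr4 lay at 9.18 to 9.69 in NOD Treg and 9.79 to 10.59 in B6 Treg, a difference of -0.82 ± 0.14 (limma adjusted p = 0.00038). None of these 3 overlapped between strains, though how many of all tested genes separate in this way was not counted. Cxcr2 exceeded the filter level on 0 of 8 Treg arrays. All 5 cell cycle markers were also lower in NOD Treg, with a summed intensity of 650 to 1020 against 999 to 1650 in B6 Treg, and their part in the receptor differences was not tested. Ccr6 (0 ± 0.12, 95% interval -0.26 to 0.26) and Cxcr5 (0 ± 0.23, 95% interval -0.49 to 0.48) did not pass the test.

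In Tconv 4 of the 10 were called, all higher in NOD, where 15.9% of tested genes were called. Cxcr2 lay at 5.91 to 6.57 in NOD Tconv and at 3.64 to 4.23 in B6 Tconv, a difference of 2.44 ± 0.14 (limma adjusted p = 1.07e-09). With no filter, which Cxcr2 had passed through NOD Tconv alone, the adjusted p was 6.95e-10, and its B6 values lay far under the filter level. Ccr9 differed by 0.61 ± 0.11 (limma adjusted p = 0.00162), Ccr6 by 0.45 ± 0.12 (limma adjusted p = 0.0221) and Cxcr6 by 0.68 ± 0.21 (limma adjusted p = 0.0381). Cxcr6 lay at 7.45 to 9.13 in NOD Tconv and 7.02 to 7.98 in B6 Tconv. Without NOD ires Tconv replicate 1 it differed by 0.37 (adjusted p = 0.212), and Ccr6 by 0.35 (adjusted p = 0.12). The Ccr6 call was also lost without replicate 1 of B6 fusion or B6 ires Tconv or replicate 2 of NOD fusion Tconv, and the Cxcr6 call without any of 6 other arrays. The remaining 6 did not pass. Of the 8 genes that define the sorted cells, 5 were also higher in NOD Tconv, with a summed intensity of 15800 to 16500 in NOD Tconv and 13000 to 13700 in B6 Tconv. Foxp3 lay at 7.12 to 8.18 in NOD Tconv and 7.01 to 7.40 in B6 Tconv. NOD fusion Tconv replicate 1 had the highest sums of the B cell markers (627) and of the dendritic cell markers (1090) of all 16 arrays. The part of these markers in the receptor differences was not tested. After each array was centred on its median, which put the median difference of all genes at 0.10, against 0.02 before, 7 receptors were called in Tconv. Over all tested genes that step called 1932 higher and 374 lower in NOD Tconv, against 1202 higher and 831 lower before it.

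Because Cxcr2 belongs to neutrophils, their markers were set beside it. The monocyte, macrophage and neutrophil list had a summed intensity of 558 to 770 in NOD Tconv and 662 to 712 in B6 Tconv, and of 558 to 639 in NOD Treg and 679 to 728 in B6 Treg. Of its 5 tested members none was called higher in NOD in either cell type. Csf3r, the neutrophil growth factor receptor, lay at 5.10 to 5.30 in NOD Tconv and 5.30 to 5.50 in B6 Tconv. S100a8 lay at 4.75 to 5.71 in NOD Tconv and 4.82 to 5.32 in B6 Tconv, with neither gene above the filter. S100a9 lay at 5.55 to 6.79 in NOD Tconv and 5.68 to 6.25 in B6 Tconv. The part of such cells in the Cxcr2 values was not tested. Cxcr1, the neighbour of Cxcr2 on chromosome 1, moved the other way in Tconv, by -0.66 ± 0.11 (limma adjusted p = 0.000461). Whether strain variants under the probes bear on these values was not tested.

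The strain difference in Treg minus that in Tconv was called for 3 receptors, all negative, where 0.820% of tested genes were called. It was -1.10 ± 0.19 for Cxcr2 (limma adjusted p = 0.00635), -0.94 ± 0.17 for Ccr8 (adjusted p = 0.00635) and -0.86 ± 0.19 for Ccr4 (adjusted p = 0.0418). Cxcr2 was thus raised less in NOD Treg than in NOD Tconv. Ccr8 and Ccr4 were lower in NOD in Treg, while in Tconv they differed by 0.17 ± 0.12 and 0.04 ± 0.14. Cxcr2 exceeded the filter level on 0 of 8 Treg arrays and Ccr8 on 0 of 8 Tconv arrays. The sizes of the Cxcr2 and Ccr8 results thus rest in part on values under that level. The Ccr4 call was not firm: its adjusted p ran from 0.00122 to 0.129 over 27 alternatives and exceeded 0.05 without any 1 of 13 of the arrays, NOD ires Tconv replicate 1 among them (-0.67, adjusted p = 0.0617). Ccr9 had -0.67 ± 0.16 and missed the threshold (adjusted p = 0.0589).

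The place of the genes in the genome was set beside their values. Of the 10 receptors 6 lie on mouse chromosome 9. Neighbours were taken among the protein-coding genes of RefSeq's annotation, ordered by start position. In that order only Fyco1 stands between Ccr9 and Cxcr6, both on chromosome 9. Ccr9 was higher in Treg by 0.86 ± 0.08 and Cxcr6 differed by -1.52 ± 0.15. Next to Cxcr6, Xcr1 did not pass the test (0.09 ± 0.07). Ccr2 lies beside Ccr3, which rose by 1.19 ± 0.13 in Treg. Ccr8 lies beside Cx3cr1, a receptor of monocytes and effector T cells, which did not pass the test (-0.12 ± 0.07). Whether probes of similar neighbouring receptors bind each other's RNA was not tested.

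**Figure D4:**
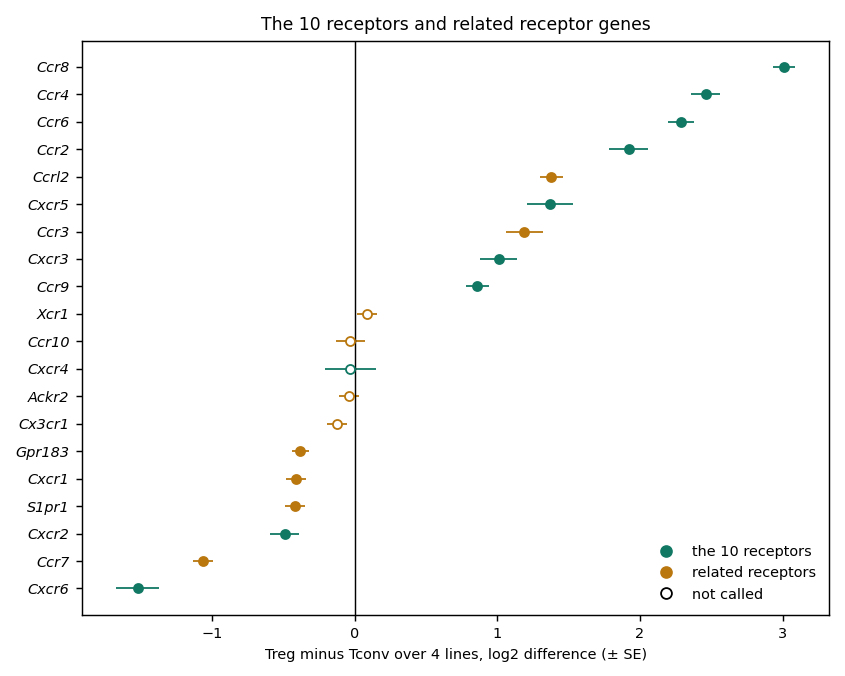
Log2 difference of Treg minus Tconv over the 4 lines (x axis, points ± SE) for the 10 receptors (green) and the 10 tested genes of the related receptor list (brown), sorted by size, with open points for genes not called. Ccr8, Ccr4, Ccr6 and Ccr2 stand at the top, and Ccr7 and Cxcr6 at the bottom.

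Of 17 related receptor genes, 16 were on the array and 10 tested, of which 2 rose and 4 fell in Treg, with a median of -0.08. Over all tested genes 16.7% rose and 11.9% fell in Treg. Ccrl2, which presents chemerin without signalling, rose by 1.38 ± 0.08 and Ccr3, the eotaxin receptor, by 1.19 ± 0.13. Ccr7, the lymph node entry receptor, fell by 1.06 ± 0.07. The egress receptor S1pr1 fell by 0.42 ± 0.07. NOD against B6 in Treg called 2 of these 10 genes higher and 2 lower. Over all tested genes the shares were 11.2% higher and 9.82% lower. Ccr7 was 0.35 ± 0.10 and S1pr1 0.41 ± 0.09 higher in NOD Treg. Of 36 chemokine ligands, 34 were on the array and 10 tested, of which 1 rose and none fell. That gene was Cxcl10, a Cxcr3 ligand, at 0.82 ± 0.13.

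Among 36 tested genes that carry or damp the receptors' signals, 14 rose and 11 fell, with a median of 0.11. For these lists too, the shares over all tested genes were 16.7% up and 11.9% down. Rgs1, which shortens chemokine receptor signals, rose by 3.38 ± 0.15 and Rgs16, of the same family, by 1.12 ± 0.10. The Rac activator Tiam1 rose by 1.12 ± 0.07, while Rasgrp2, an activator of Rap1 in integrin-driven adhesion, fell by 1.14 ± 0.07. Of 20 transcription factors linked to these receptors in T cells, 12 rose and 4 fell, the largest difference beside Foxp3 and Ikzf2 being Prdm1 at 1.77 ± 0.08 and Irf4 at 1.75 ± 0.09. Of 13 tested homing molecules, 9 rose and 2 fell. Itgae, the alpha chain of an E-cadherin-binding integrin, rose by 3.46 ± 0.10, the gut receptor Gpr15 by 1.30 ± 0.09, and Cd44 by 0.93 ± 0.09.

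The genes most like the 3 receptors with the widest spread over the 8 group means were ranked by Pearson r over the 16 arrays, as a description in which cell type is shared by all points. Ccr8 followed Swap70 (0.990), Tnfrsf1b (0.986) and Itgae (0.985), Ccr4 followed S100a6 (0.986), Ccr8 (0.968) and Il12rb1 (0.968), and Ccr6 followed Slc2a3 (0.991), Nrp1 (0.985) and Nt5e (0.984). After the mean of each cell type was taken from its arrays, Cep112 (0.902), Il17rb (0.853) and Swap70 (0.829) were most like Ccr8. S100a6 (0.889), Manba (0.863) and St3gal5 (0.816) were then most like Ccr4, and Tubgcp2 (0.855), Ash2l (0.853) and Nat8f4 (0.852) most like Ccr6. Swap70 for Ccr8 and S100a6 for Ccr4 thus stood in both rankings.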

How the data were processed

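RNA of 16 sorted spleen T cell samples was measured on Affymetrix Mouse Gene 1.0 ST arrays. The authors deposited 1 linear intensity per probe set and array, summarised by RMA with Affymetrix Power Tools per the submitters' processing notes, with no version stated. Of 25108 probe sets, 21157 named 1 gene symbol, 1341 several and 2610 none, and those of 1 symbol gave 19531 genes. Median intensity per array was 86.7 to 99.0, and the small number of arrays limits precision. Intensities were taken to log2 and 12798 genes above log2 6.06 on at least 2 arrays were fitted with limma 3.58.1 (R 4.3.3), 1 mean for each of 8 groups, with Benjamini-Hochberg adjustment over all tested genes. The fit was tested on simulated data. Promoter windows came from RefSeq tables. The receptors, gene lists and alternatives were chosen with earlier results of these data known. Named genes were the 10 receptors and, from each list and comparison, at most 4 called genes by size.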

Additional observations from a re-analysis of the deposited data

Results flagged for a closer look

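For 4 results the effect of one factor differed between Treg and Tconv by a test of that difference. The fusion minus ires difference of Ccr4 in Treg minus that in Tconv was 1.25 (limma adjusted p = 0.0158). The NOD minus B6 difference in Treg minus that in Tconv was -1.10 for Cxcr2 (adjusted p = 0.00635), -0.94 for Ccr8 (adjusted p = 0.00635) and -0.86 for Ccr4 (adjusted p = 0.0418). Cxcr2 exceeded the filter level on 0 of 8 Treg arrays and Ccr8 on 0 of 8 Tconv arrays.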

How the results depend on the processing

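Each of the 10 receptors was refitted for 14 comparisons under the alternatives. Of 3696 such values 3544 stayed on their side of the threshold, 89 lost a call and 63 gained one. No called difference changed sign, and 77 values called in neither fit did. With each array left out in turn, the number of receptors called ran over 9 to 9 for Treg against Tconv over the 4 lines, 7 to 8 in the B6 fusion line, 6 to 8 in B6 ires, 6 to 9 in NOD fusion and 4 to 7 in NOD ires, 0 to 3 for fusion against ires in Treg, 0 to 2 in B6 Treg, 0 to 1 in Tconv, 0 to 2 for the allele effect in Treg minus Tconv, and 2 to 6 for NOD against B6 in Tconv. For fusion against ires in Treg, array weights gave 0, every probe set on its own 0, no filter 0, centred arrays 1, quantile normalization 1, and a fit of the groups compared alone 5. In B6 Treg, array weights gave 1, no filter 1, quantile normalization 1 and the groups compared alone 5. Over all tested genes, the groups compared alone gave 115 calls in Treg, against 78, and 168 in B6 Treg, against 44. Centred arrays gave 7 for NOD against B6 in Tconv. Replicate numbers were not taken to pair the samples, since 1 of the 4 lines had a correlation under 0.1: that of deviations of same-numbered Treg and Tconv was 0.398, 0.239, 0.396 and 0.0803 in the B6 fusion, NOD fusion, B6 ires and NOD ires lines. A replicate block within each line gave 5 receptors for the strain effect in Treg minus Tconv, against 3, with Cxcr4 (-0.62, adjusted p = 0.00766) and Ccr9 (adjusted p = 0.0132) added. The block within each line called 258 of all tested genes for that effect, against 105 without it. It also called Cxcr4 in B6 ires (0.38, adjusted p = 0.0224) and NOD fusion mice (-0.39, adjusted p = 0.0183), Cxcr3 in B6 ires (adjusted p = 0.0267), and Cxcr5 (adjusted p = 0.00669) and Cxcr2 (adjusted p = 0.0169) in NOD ires mice. As 1 number over all groups, the block added Ccr9 for that strain effect (adjusted p = 0.0234) and Cxcr4 for NOD against B6 in Tconv (adjusted p = 0.0196). The causes of these changes were not tested. With 2 arrays a group, small differences in receptors near the filter level could not be resolved.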
